A study of Petunia x hybrida with 7 samples.

Results

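The regions described here are stretches of the petunia genome where binding of PhDEF was listed in wico and in wild-type petals but not in star petals. They were chosen by presence and absence in the peak lists that the authors deposited, 1 list per genotype. Peaks of the 3 lists on the 7 long scaffolds, HiC_scaffold_1 to HiC_scaffold_7, were pooled, and peaks sharing at least 1 bp were merged into a region. This gave 5073 regions, of which 1105 held a wico and a wild-type peak and no star peak. They made up 21.8% of all regions (95% exact binomial interval 20.7 to 22.9%), 29.96% of the 3688 regions with a wico peak and 41.2% of the 2684 regions with a wild-type peak. Of the 1919 regions held by wico and the wild type together, 57.6% lacked a star peak. That share is the rule itself and nothing is read from it.

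PhDEF is a MADS-domain transcription factor of the B class, the group that together with other MADS-domain proteins gives floral organs their petal and stamen identity. Such proteins bind DNA as dimers at CArG boxes and act in larger complexes. A petal is built from an epidermis, which forms the pigmented conical cells of the limb, and an inner mesophyll. In petunia, wico and star are periclinal chimeras, plants in which whole cell layers differ in genotype. Star flowers are known for a nearly normal tube with a reduced and poorly pigmented limb, and wico flowers for a limb that forms and colours on a reduced tube.

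PhDEF was immunoprecipitated with an antibody against it from petals taken whole, with tube and limb. All plants were Petunia x hybrida of the R27 cultivar, and flowers were at stage 8. Days lasted 16 h (22 °C) and nights 8 h (18 °C). Every library had the same double fixation, by the crosslinker DSG (1 h, 2.5 mM) and by formaldehyde (5 min, 1%). Each immunoprecipitation took 2.5 µg of antibody. Whether PhDEF itself touched the DNA at a listed peak was not tested. The wico petals (2 libraries) had a wild-type epidermis over a mesophyll carrying mutant phdef. The star petals (2 libraries) had the reverse, a mutant phdef epidermis over a wild-type mesophyll. Wild-type petals (2 libraries) had PhDEF in both layers, and 1 wild-type input library was the control chromatin. Layers were not separated before the chromatin was prepared, so that in wico and star the chromatin of the layer without functional PhDEF was present as well. By genotype, the set is therefore where sites bound in the epidermis alone would fall. A site bound in both layers and missed in star would fall there too. Petals were taken whole, and the limb is known to be reduced in star and the tube in wico. Sites that differ between limb and tube could thus fall there as well. These cases cannot be told apart from the lists.

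The lists held 4276 wico, 2216 star and 3134 wild-type peaks, of which 3692 wico, 1781 star and 2687 wild-type peaks lay on the 7 long scaffolds. The star list was thus the shortest. Each listed peak combines both replicate libraries of its genotype after a filter on the irreproducible discovery rate (IDR), the estimated proportion of irreproducible peaks down to a given rank. The largest global IDR in each list was 0.1 after rounding. The lists give no read counts, so the depth behind them is unknown and a site under the authors' threshold looks the same as an unbound site. Because there is 1 list per genotype and the lists themselves chose the regions, values below are descriptions without a test. The intervals of shares are exact binomial ones that cover counting error only, and regions are not replicates of a genotype.

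Most regions of the set were of middle rank in the lists that held them. Peaks were ranked in their own list by the deposited signal value, the sum of the values of both replicates, and the rank is given as a percentile in which 100 is the strongest peak. The median percentile was 62.3 in the wico list (quartiles 43.6 and 78.6) and 51.7 in the wild-type list (quartiles 31.9 and 71.3). Regions present in all 3 lists stood higher, with medians of 80.3 in wico and 76.2 in the wild type. Regions of wico alone had a median of 29.0, and regions of the wild type alone had a median of 19.6. The set lay below the regions of all 3 lists in each of the 7 scaffolds, in both lists.

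Few of these regions were among the strongest sites. In the wico list, 81 of the 1105 regions, or 7.33% (5.86 to 9.03%), stood above percentile 90, against 9.78% of all wico peaks on the long scaffolds. In the wild-type list 45 regions, or 4.07% (2.99 to 5.41%), did so, against 9.75% of all wild-type peaks there. All peaks include those held by a single list, which ranked low, so jointly held regions are the closer comparison. Among these, 342 stood above percentile 90 by wico rank and 257 by wild-type rank. The set made up 57.6% of all jointly held regions, but 23.7% of those 342 and 17.5% of those 257. The weakest 10% of the lists were also thinly represented. At the bottom of the wico list were 20 regions, or 1.81%, and at the bottom of the wild-type list 45, or 4.07%. This was not particular to the set. Of the 1919 regions held by wico and the wild type together, 26 lay there by wico rank and 52 by wild-type rank. By the authors' reproducibility measure, 901 regions, or 81.5%, had a global IDR of at most 0.02 in wico, where 65.6% of all wico peaks did. In the wild type 651 regions, or 58.9%, passed the same limit, where 56.6% of all wild-type peaks did. Shares by single list are not given here for the jointly held regions. The set is therefore not read as more reproducible than those in either list. Both lists passed it at 592 regions, or 53.6% (50.6 to 56.5%), against 64.0% of all jointly held regions, and neither did at 145, or 13.1% (11.2 to 15.3%), against 9.69% of them. The jointly held regions include the set itself.

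**Figure D1:**
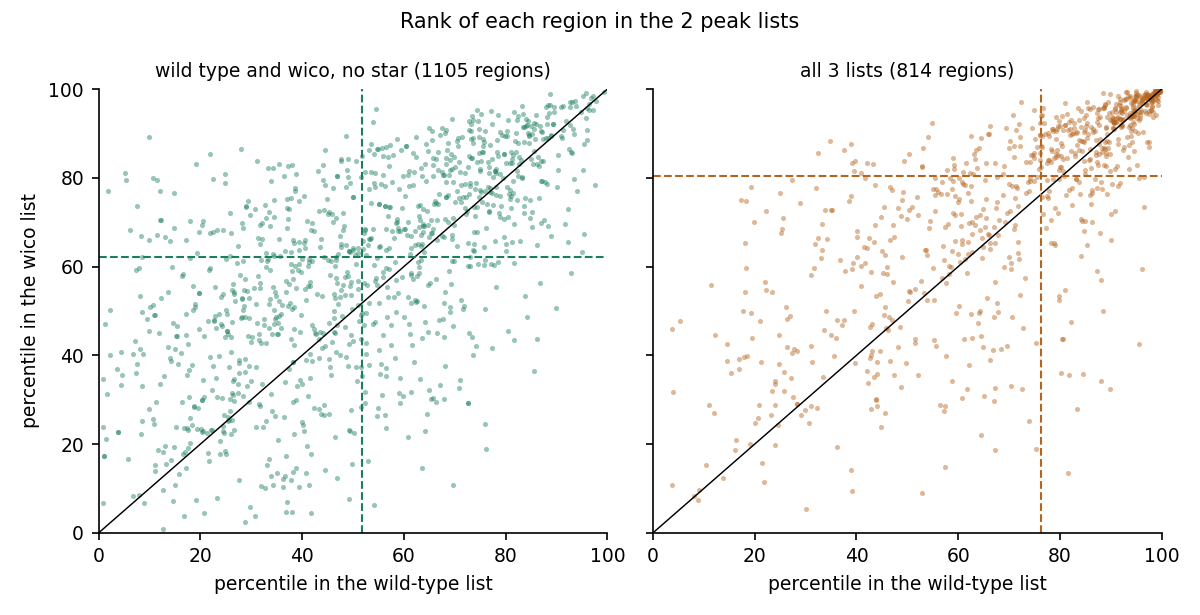
Each point is a region, plotted by its percentile in the wild-type list (x axis) and in the wico list (y axis), for regions without a star peak (left) and regions in all 3 lists (right). Dashed lines are medians and the solid line marks equal percentiles. The set without star is spread over the middle ranks, with medians of 62.3 in wico and 51.7 in the wild type, while regions of all 3 lists gather in the upper right corner.

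The rank of a region in wico went with its rank in the wild type, but loosely. Across the 1105 regions the rank correlation (Spearman) of both percentiles was 0.63, against 0.81 across the 814 regions of all 3 lists. These are descriptions across regions that share libraries. The lists differ in length, so the same rank gives a higher percentile in wico, and percentiles of the 2 lists are not compared in level. By rank, with 1 as the strongest peak, the medians of the set were 1615 in wico and 1515 in the wild type. The wico rank was nearer the top at 464 regions, or 41.99% (39.1 to 44.96%), although the wico percentile was the higher at 750. For the regions of all 3 lists the wico rank was nearer the top at 342 of 814, or 42.0% (38.6 to 45.5%).

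The replicates behind these ranks can be read from the deposited columns, which do not say which library is which. In wico the median signal value of the set was 6.11 in the first replicate column (quartiles 4.98 and 7.57) and 5.25 in the second (4.43 and 6.46). In the wild type it was 4.46 in the first column (3.92 and 5.26) and 5.81 in the second (4.82 and 7.01). The signal has no stated normalization, and values are read only inside a list. The first column was the higher at 73.1% of regions in wico and at 13.8% in the wild type, so the replicates of each genotype differed in level. The rank correlation of the replicate columns across the set was 0.68 in wico and 0.53 in the wild type. Across the regions of all 3 lists it was 0.82 in wico and 0.75 in the wild type. In all 4 columns together, 318 regions, or 28.8%, stood above the middle of their list, and 11, or 0.995%, stood above percentile 90. The same shares are not given here for other jointly held regions, so these are not read as high or low.

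The share of regions lacking star was lowest among the strongest sites. This describes how the rule fell along the ranks, in lists that were each cut at a threshold. No other pair of lists was counted this way, so the pattern is not read as particular to star. Among the 342 jointly held regions above percentile 90 in wico, 81 lacked a star peak, or 23.7% (19.3 to 28.6%). Among the 257 above percentile 90 in the wild type, 45 did, or 17.5% (13.1 to 22.7%). Between percentiles 50 and 60 the shares were 73.4% by wico rank and 66.0% by wild-type rank. At the bottom of the lists, up to percentile 10, they were 76.9% of 26 regions by wico rank and 86.5% of 52 regions by wild-type rank. By wild-type rank the share moved down almost step by step towards the top, whereas by wico rank it lay between 66.2 and 79.0% up to percentile 70 and was lower only above that.

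**Figure D2:**
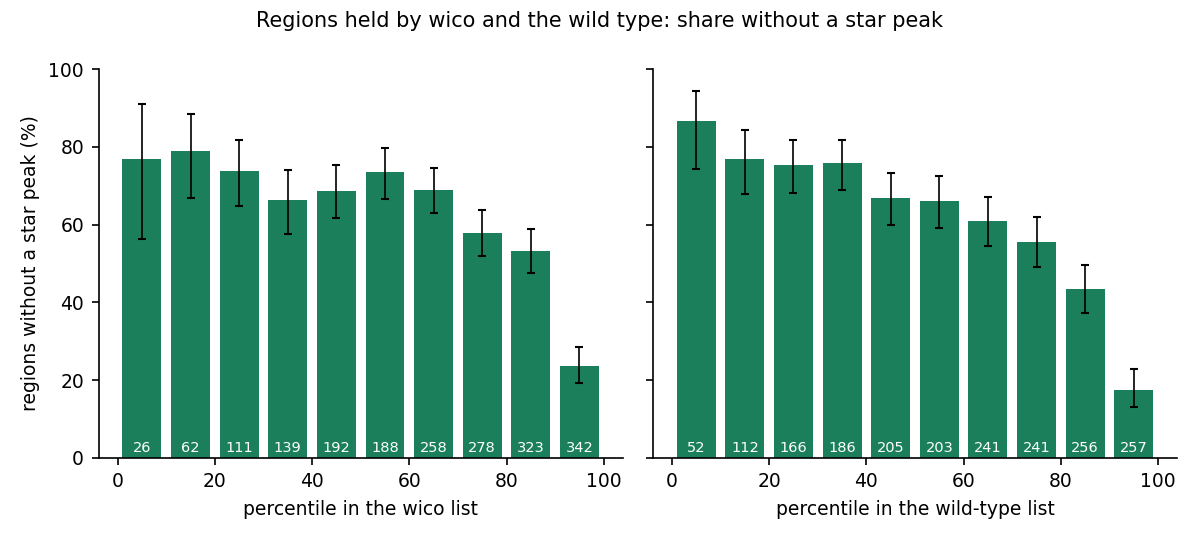
Bars give the percent of regions held by wico and the wild type that lacked a star peak, by 10% step of the wico list (left) and the wild-type list (right). Error bars are 95% exact binomial intervals, and the white number is the count of regions. The bar of the strongest 10% is the lowest in both panels, at 23.7% by wico rank and 17.5% by wild-type rank.

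Taking both ranks at once, 209 regions stood above percentile 90 in wico and in the wild type, and 24 of them lacked star, or 11.5% (7.50 to 16.6%). Where both ranks were at most 50, 290 of 392 regions lacked star, or 74.0% (69.3 to 78.3%). The 24 regions strong by both ranks lay on 6 of the 7 scaffolds, with 6 each on HiC_scaffold_1 and HiC_scaffold_2 and none on HiC_scaffold_7. Star peaks lay within 1 kb of 1 of them and within 10 kb of 3, and 11 had none within 100 kb. The wico and wild-type summits, the points of highest signal in a peak, were at most 50 bp apart at 22 of the 24.

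The strongest region of the set lay at positions 2785177 to 2785746 of HiC_scaffold_5 (570 bp). Positions are counted from 1 in the scaffolded assembly of the files, whose build is not given in the sources used here, and no gene annotation was used. Its replicate signals were 16.7 and 14.5 in wico and 11.6 and 15.5 in the wild type. It ranked 31 of 4276 in wico and 23 of 3134 in the wild type. All 4 values stood above percentile 99 of their column, the wico and wild-type summits were 4 bp apart, and star had its nearest peak at 14897 bp.

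HiC_scaffold_2 carried 2 of the 6 strongest regions, and they differed in how well the replicates agreed. The region at 186524107 to 186524898 had signals of 16.2 and 10.5 in wico and of 9.39 and 11.4 in the wild type. Its percentiles by single column ran from 95.8 to 99.1. The region at 23564994 to 23565417 had signals of 17.2 and 12.3 in wico and of 5.26 and 14.0 in the wild type. Its first wild-type column stood only at percentile 70.5, while the other 3 columns stood at 98.3 or above. The nearest star peaks were 456 kb from the first of these regions and 1.30 Mb from the second.

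On HiC_scaffold_1 the strongest region, at 66557156 to 66557872, had signals of 12.7 and 11.6 in wico and of 8.26 and 13.4 in the wild type, with the nearest star peak 561 kb away. On HiC_scaffold_6 it was the region at 3026366 to 3027396, with signals of 12.5 and 14.1 in wico and of 9.58 and 9.08 in the wild type. This region was 1031 bp wide, and its wico and wild-type summits were 256 bp apart, so the listed maxima did not coincide. HiC_scaffold_3 held the strongest region with a star peak close by, at 100509377 to 100509787. Its signals were 13.9 and 11.9 in wico and 7.32 and 12.7 in the wild type, and a star peak at percentile 66.8 of the star list ended 218 bp before it, in a neighbouring region of all 3 lists.

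The strongest regions of the remaining scaffolds ranked lower. The region at 57851030 to 57851690 of HiC_scaffold_4 stood at percentile 97.1 in wico and 93.1 in the wild type, with both summits at the same base. The region at 4244095 to 4244979 of HiC_scaffold_7 stood at percentile 94.8 in wico and 89.5 in the wild type. It held 2 wico peaks beside 1 wild-type peak.

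**Figure D3:**
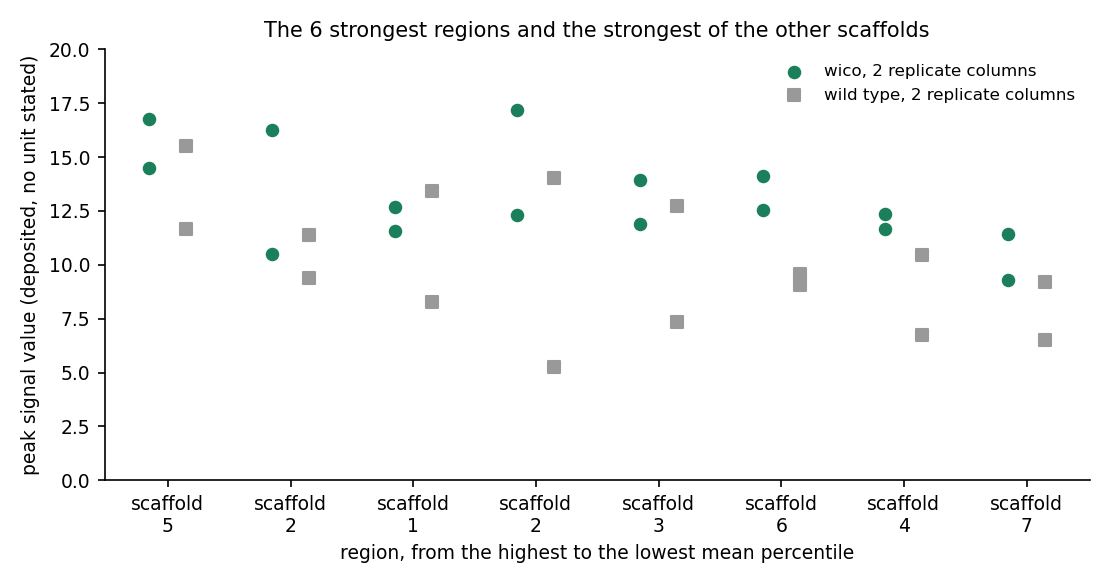
Deposited signal values of both replicate columns in wico (circles) and the wild type (squares) for 8 regions without a star peak, ordered by mean percentile and named by their scaffold on the x axis. Values of different lists share an axis only for display. The 4 values of the leftmost region lie between 11.6 and 16.7, and the widest gap between replicates is in the second region of scaffold 2, with 5.26 and 14.0 in the wild type.

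The weakest regions of the set lay near the reproducibility limit in both lists. The weakest, at 96953560 to 96953997 of HiC_scaffold_4, ranked 3994 of 4276 in wico and 3109 of 3134 in the wild type. Its signals were 3.51 and 3.80 in wico and 3.44 and 3.78 in the wild type. The next, at 100955306 to 100956068 of the same scaffold, stood at percentile 0.83 in wico and 12.6 in the wild type. The region at 188832495 to 188833009 of HiC_scaffold_2 stood at percentile 8.28 in wico and 6.73 in the wild type. Global IDR was between 0.0762 and 0.0994 for the 6 peaks of these 3 regions.

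Some regions stood high in 1 list and low in the other. The percentiles differed by over 50 points at 32 of the 1105 regions, or 2.90% (1.99 to 4.06%). The 4 regions below are extremes picked by rule. As the lists differ in length, their differences are not read as differences in binding between genotypes. The largest percentile difference towards wico was at 135073633 to 135074721 of HiC_scaffold_1, which stood at percentile 89.2 in wico and 9.92 in the wild type. Its signals were 9.43 and 7.42 in wico and 3.76 and 3.95 in the wild type. Ranked by single column, it stood at percentiles 90.1 and 86.2 in wico and 20.2 and 11.6 in the wild type. The region at 154995904 to 154996545 of HiC_scaffold_7 stood at percentile 81.0 in wico and 5.25 in the wild type. The largest difference towards the wild type was at 100322215 to 100322618 of HiC_scaffold_4, at percentile 10.8 in wico and 69.6 in the wild type. Its signals were 3.83 and 3.76 in wico and 5.99 and 6.02 in the wild type. By single column it stood at percentiles 11.8 and 15.7 in wico and 81.7 and 56.2 in the wild type. It was followed by the region at 81012181 to 81012816 of HiC_scaffold_3, at percentile 18.9 in wico and 76.2 in the wild type. The single columns of that region stood at percentiles 20.2 and 25.1 in wico and 89.5 and 58.1 in the wild type.

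Listed star peaks lay at widely varying distances from these regions. The median distance from the edge of a region to the nearest star peak was 102 kb, with quartiles of 25.8 and 268 kb. A star peak lay within 10 kb of 121 regions, or 10.95% (9.17 to 12.9%), against 9.65% of all 3295 regions without a star peak. Within 1 kb there were 28 such regions, or 2.53% (1.69 to 3.64%), against 1.99% for wico alone and 1.59% for the wild type alone. Within 500 bp there were 11, or 0.995%, against 0.83% for wico alone and 1.43% for the wild type alone. At the other end, 558 regions, or 50.5%, had no star peak within 100 kb, and 54, or 4.89%, had none within 1 Mb. These shares were higher in the other groups, at 57.5% and 5.83% for wico alone and 60.4% and 7.95% for the wild type alone.

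At intermediate range the set stood closer to star peaks than other regions without star. A star peak lay within 50 kb of 34.6% of the set (31.8 to 37.5%), against 25.6% of the regions of wico alone (23.4 to 27.8%) and 26.9% of those of the wild type alone (23.4 to 30.5%). The median distances were 132 kb for wico alone and 150 kb for the wild type alone. This comparison has no test, and the groups also differ in rank. Within the set, rank and distance were all but unrelated, with a rank correlation of 0.03 across regions. The nearest star peak was itself of any rank, with a median percentile of 50.4 in the star list.

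**Figure D4:**
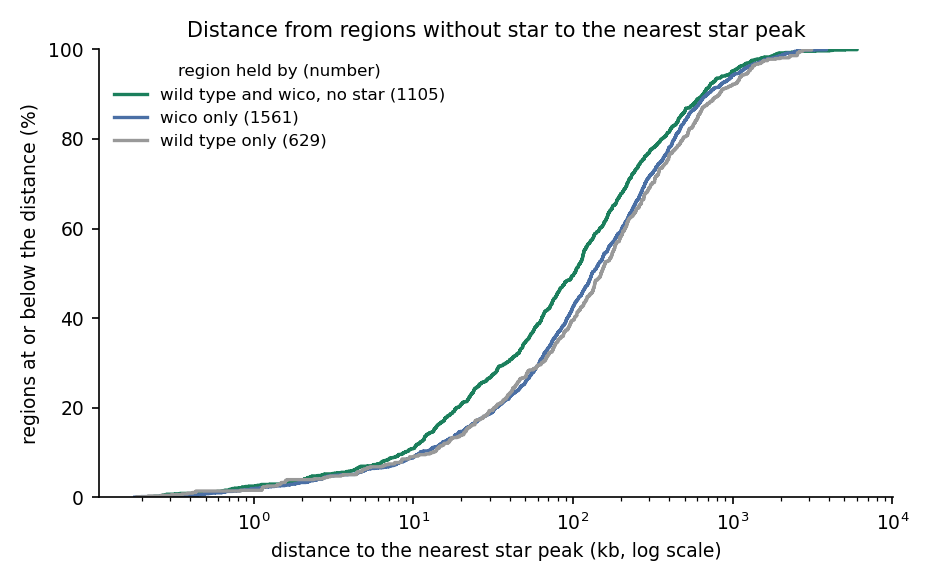
Cumulative percent of regions (y axis) by distance to the nearest star peak in kb on a log scale (x axis), for regions of wico and the wild type without star, of wico alone and of the wild type alone. The curves are close together up to 10 kb. At 50 kb the set stands at 34.6%, wico alone at 25.6% and the wild type alone at 26.9%.

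The regions nearest to star peaks were clear of them rather than narrowly missed by the overlap rule. The smallest distances were 188, 218 and 238 bp. The closest was at 116700193 to 116700769 of HiC_scaffold_5, at percentile 82.0 in wico and 78.1 in the wild type, with a star peak that was shared with wico on its left. The region 238 bp from star, at 71576500 to 71576950 of HiC_scaffold_4, stood at percentile 83.7 in wico and 50.6 in the wild type. On the other side of the rule, the smallest star overlaps among the regions of all 3 lists were 147, 190 and 193 bp, and the median was 360.5 bp. No region thus lay within 100 bp of the boundary on either side. Of the 28 regions with a star peak within 1 kb, 16 had as that neighbour a region of all 3 lists, 6 a region of star alone, 4 one of wico and star and 2 one of the wild type and star. The regions with a star peak are in the same order overall by number, with 814 of all 3 lists, 620 of star alone, 208 of wico and star and 136 of the wild type and star.

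The farthest regions from star lay in the middle of HiC_scaffold_2. The region at 92739173 to 92739431 was 6.01 Mb from the nearest star peak and stood at percentile 71.4 in wico and 73.9 in the wild type. Its signals were 6.35 and 6.33 in wico and 5.63 and 6.92 in the wild type. Next to it, the region at 93715468 to 93715772 was 5.04 Mb away, at percentile 69.8 in wico and 42.0 in the wild type. The region at 124408594 to 124409041 was 4.20 Mb away and stood at percentile 48.5 in wico and 84.3 in the wild type. The 54 regions over 1 Mb from star had median percentiles of 68.4 in wico and 62.7 in the wild type.

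The wico and wild-type peaks of a region marked nearly the same place. Their summits were a median of 20 bp apart (quartiles 9 and 37 bp) over the 1089 regions whose listed summits lie inside the peaks. The distance was at most 50 bp at 84.0% (81.7 to 86.1%) and at most 100 bp at 92.8%. Regions of all 3 lists had a median of 16.5 bp between the same summits, with 84.8% at most 50 bp apart. Inside a genotype, the summits of the 2 replicate columns were a median of 22 bp apart in wico and 28 bp in the wild type, values close to the 20 bp between genotypes. Summits lay closer together at stronger regions, with a median of 16 bp in the upper 25% of the set by mean percentile and 28 bp in the lowest 25%. The wico and wild-type peaks shared at least 50% of the narrower peak at all 1105 regions, and at 577 regions the narrower peak lay wholly inside the wider one.

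Regions of the set had a median width of 476 bp (quartiles 384 and 613 bp). The peaks inside them had medians of 402 bp in wico and 424 bp in the wild type. Regions of all 3 lists were wider, at a median of 528.5 bp, and the median of the set was the smaller in 7 of 7 scaffolds. A region of all 3 lists is merged from 3 lists rather than 2, and the separate peaks were also wider in the regions of all 3 lists, at 437 bp in wico and 461.5 bp in the wild type. Width did not go with rank inside the set, with a rank correlation of 0.01 across regions. Over 1000 bp wide were 40 regions, or 3.62% (2.60 to 4.90%), against 2.68% of all regions. All but 4 of the 1105 regions consisted of 1 wico and 1 wild-type peak, and the 4 held 3 peaks each.

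The widest region spanned 1642 bp at 133378919 to 133380560 of HiC_scaffold_1, from a wico peak of 1277 bp and a wild-type peak of 1462 bp with summits 8 bp apart. The next spanned 1632 bp at 55805702 to 55807333 of HiC_scaffold_4, and there the wico peak covered 590 bp and the wild-type peak the whole width. Its summits were 295 bp apart. The narrowest regions were 151 bp, at 91305016 to 91305166, and 190 bp, at 114284967 to 114285156, both on HiC_scaffold_1. In both, a listed summit lies outside the interval. The second is a piece of a longer record, as the same replicate signals are listed again for another region of the set 345 bp away. Such pieces, which share the replicate intervals and signals of 1 record, made up 67 of the 4276 wico peaks, 87 of the 2216 star peaks and 84 of the 3134 wild-type peaks. In the set, 13 regions held a piece, and 10 of them formed 5 pairs that share a record.

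The median distance to the nearest other region of the set was 154 kb (quartiles 39.4 and 487 kb). For regions of all 3 lists, which are fewer, the distance to the nearest of their own kind was 191 kb. Another region of the set lay within 10 kb of 118 regions, or 10.7% (8.92 to 12.7%), where 10.2% of all regions had one of their own kind so close. Counting regions of every kind, a neighbour lay within 10 kb of 335 regions, or 30.3% (27.6 to 33.1%), against 28.9% of all regions. The nearest neighbour of any kind was a median of 24.5 kb away. It was of the set itself in 26.1% of cases (23.5 to 28.8%), where the set makes up 21.8% of the other regions, and held by wico alone in 27.8% (25.2 to 30.5%), where such regions make up 30.8%. It was held by star alone in 9.95% (8.25 to 11.9%), where such regions make up 12.2%.

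Joined at distances of up to 10 kb, the 118 regions with a close neighbour formed 50 pairs, among them the 5 pairs that share a record, and 6 groups of 3, with 15 of these 56 on HiC_scaffold_4. Their spans ran from 0.892 kb, at 1 of those 5 pairs, to 12.4 kb, with a median of 4.93 kb. No star peak and no region of another kind lay inside any of the 6 groups of 3. Of all 3295 regions without a star peak, only 9.65% had one within 10 kb. Spans of other regions were not counted this way, so the absence is not read as a trait of the groups. The tightest of these covered 6.38 kb of HiC_scaffold_4 from 89228024 to 89234404. Its members stood at percentiles 60.1, 81.3 and 22.9 in wico and 73.0, 52.4 and 49.5 in the wild type. On HiC_scaffold_2, a group covering 8.11 kb from 139664777 to 139672885 held the strongest members of the 6. These stood at percentiles 90.01, 85.8 and 30.2 in wico and 68.0, 81.0 and 65.4 in the wild type.

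The other 4 groups of 3 lay on HiC_scaffold_3 and HiC_scaffold_4. They covered 89621175 to 89632466 and 135036151 to 135048544 of HiC_scaffold_3, and 93646745 to 93657186 and 94169794 to 94181445 of HiC_scaffold_4. Their 12 members ranged from percentile 30.8 to 73.4 in wico and from 15.5 to 79.7 in the wild type. None stood above percentile 90 in either list.

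By scaffold, HiC_scaffold_4 held the most regions of the set with 220, and HiC_scaffold_6 the fewest with 109. Relative to the length of a scaffold, taken as its largest listed peak end, the density was 1.96 per Mb on HiC_scaffold_4, 1.32 on HiC_scaffold_1 and 1.27 on HiC_scaffold_3. It was 0.99 on HiC_scaffold_5, 0.82 on HiC_scaffold_2, and 0.79 on both HiC_scaffold_6 and HiC_scaffold_7. All regions together were also densest on HiC_scaffold_4, at 8.43 per Mb, and sparsest on HiC_scaffold_6, at 3.59 per Mb. Of the regions held by wico and the wild type, the share without star ran from 54.5% on HiC_scaffold_3 (48.9 to 60.0%) to 64.9% on HiC_scaffold_6 (57.2 to 72.1%). The intervals of the 7 scaffolds overlapped.

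Along the scaffolds the set followed the distribution of all regions. The outer 10% at either end held 392 regions of the set, or 35.5% (32.7 to 38.4%), against 34.5% of all regions and 39.6% (36.2 to 43.0%) of regions of all 3 lists. The last 10% of the scaffold lengths held 22.3% of the set and 21.5% of all regions, and the 10% just before the middle held 3.89% of the set and 4.85% of all regions. On single scaffolds the set stood above all regions on 3 and below on 4. The widest departure was on HiC_scaffold_7, where 47.2% of the set and 34.8% of all regions lay in the outer parts. The 2 ends were unequal, with 53 regions in the last 10% and 8 in the first 10% of HiC_scaffold_1, but 7 in the last 10% and 34 in the first 10% of HiC_scaffold_5. Counts of all regions by single end are not given here, so this is not read as particular to the set. With both ends together, the outer parts held 32.1% of the set and 32.2% of all regions on HiC_scaffold_1. On HiC_scaffold_5 they held 31.5% of the set and 34.9% of all regions. Each scaffold had a long inner stretch free of the set, from 6.64 Mb on HiC_scaffold_4 to 13.8 Mb on HiC_scaffold_2.

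**Figure D5:**
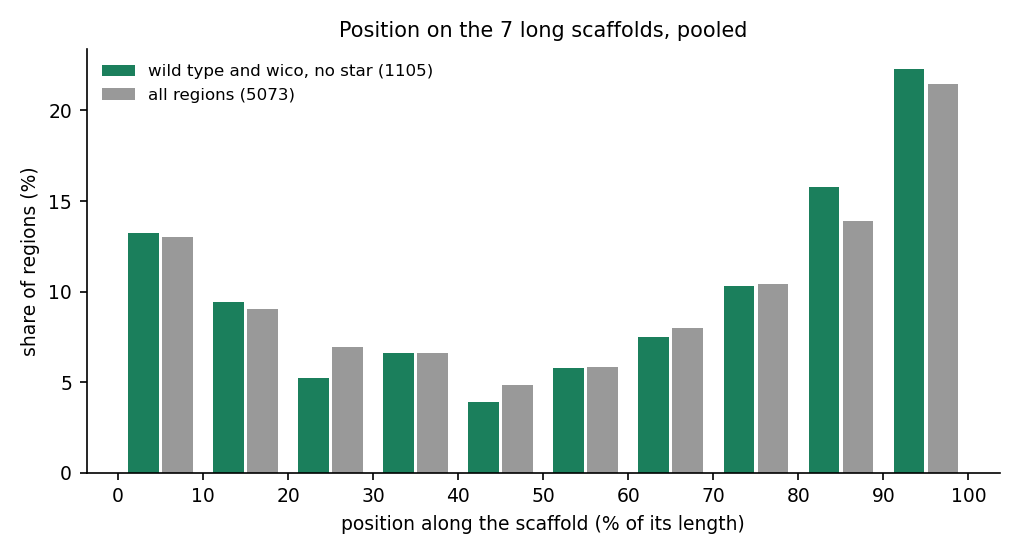
Percent of regions (y axis) in each 10% of scaffold length (x axis), pooled over the 7 long scaffolds, for regions of wico and the wild type without star and for all regions. Both are densest at the ends and sparsest in the middle, and the last 10% holds 22.3% of the set and 21.5% of all regions.

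Regions in the outer parts stood slightly higher in rank than inner ones. Their median percentiles were 65.1 in wico and 54.3 in the wild type, against 61.1 in wico and 49.6 in the wild type for inner regions. They were also nearer to star peaks, at a median of 60.8 kb against 127 kb, and nearer to each other, at 95.2 kb against 191 kb, where all regions are denser as well. By distance to star the ranks differed little up to 1 Mb. The 121 regions with a star peak within 10 kb had median percentiles of 63.5 in wico and 49.6 in the wild type, and the 504 regions 100 kb to 1 Mb away had 60.4 in wico and 50.9 in the wild type.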

How the data were processed

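Binding was profiled by ChIP-seq in 7 libraries, and 3 peak lists without header lines were used, assigned to genotypes by the library numbers in their names. Per the submitters' processing notes, Bowtie2 2.4.2, MACS2 and bedtools were among the tools. The genome build is not given in the sources used here, nor are the settings. The 21 columns follow the layout of the idr program. The signal values deposited by the authors carry no stated normalization, and the summed value equals the sum of both replicate values in every row. The score deposited by the authors restates the −log10 global IDR that the authors also deposited, which is capped at 5.

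Peaks were merged and measured with Python 3.11.15, pandas 2.3.3, numpy 2.4.6 and scipy 1.17.1. Code tested on simulated data recovered the class of 2000 of 2000 regions and differed from bedtools 2.31.1 at 0 of 5073 regions. The simulated regions lay well apart and their peaks always overlapped, so the simulation held no borderline cases. Distances are bases between edges. Percentiles use whole lists, and a region takes its strongest peak of a list. Named regions (42) were taken by rule: the 6 strongest, the strongest per scaffold, the extremes of rank, distance, width and rank difference, and the largest groups. The strong 24 and other subsets were picked after values were seen. The regions and the comparisons were chosen with earlier results of these data known. No genome sequence was used here, so no sequence, CArG box or gene is reported.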

Additional observations from a re-analysis of the deposited data

How the results depend on the processing

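The set was recomputed with other definitions, cut-offs and rankings, and 46 of 72 recomputed values stayed within the 95% interval of the value reported (for the count, within 1.5 times). Requiring 50% reciprocal overlap gave 1074 regions, requiring no star peak within 500 bp gave 1094, and using all scaffolds gave 1240. Joining pieces of 1 record, an alternative chosen after seeing the data, gave 1099. These settings moved none of the values they gave. Shortening the lists moved most values, since fewer and stronger peaks then define the regions. At a global IDR of at most 0.02 there were 729 regions, with median percentiles of 75.8 in wico and 69.5 in the wild type, 196 kb to star, a spacing of 263 kb and 38.5% in the outer 10% of scaffolds. With the upper 50% of each list there were 617 regions, with percentiles of 79.6 in wico and 74.1 in the wild type, 247 kb to star, a spacing of 281 kb and 38.6% in the outer 10%. With lists of equal length there were 596 regions, or 48.9% of those held jointly, with percentiles of 75.9 in wico and 68.1 in the wild type, a spacing of 289 kb and 39.1% in the outer parts. Reducing the wico list alone, also chosen after seeing the data, gave 697 regions, or 51.7%, percentiles of 74.0 in wico and 63.3 in the wild type and a spacing of 263 kb. Of the 1105 regions, 592, 486, 596 and 697 were found again in these 4 settings. By the second replicate column alone the median wico percentile was 59.7. Counting the strongest wild-type peak in place of the region gave a width of 424 bp, and the outer 5% held 22.3%.

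No paired analysis was possible because a listed peak rests on both libraries of its genotype and its 2 signal columns are not numbered. Leaving out a replicate was not run, as the lists exist only for both together. The outer share was not recomputed on all scaffolds, since the length of short scaffolds cannot be told from the lists. Absence from star is absence from the shortest list at unknown depth, and whether star signal below the threshold was present at these regions was not tested.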

Other observations

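The mirror set, regions held by star and the wild type but not by wico, was far smaller, with 136 regions on the long scaffolds. Its median percentiles were 54.6 in the star list (quartiles 28.9 and 77.1) and 36.6 in the wild-type list (22.3 and 58.6), against 51.7 in the wild-type list for the set without star. Its regions had a median width of 426.5 bp. Of the 765 wild-type regions without a wico peak, star held 17.8% (15.1 to 20.7%). The wico list is longer than the star list, so the 2 sets were not given equal chances to arise.

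Percentiles of the 2 replicate columns differed by over 50 points at 17 regions of the set in wico, or 1.54% (0.90 to 2.45%). In the wild type they did so at 53, or 4.80% (3.61 to 6.23%). No such share is given here for other regions, so neither value is read as a trait of the set.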
